A study of Mus musculus with 7 samples.

Results

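Tumour-associated macrophages are often described by a small set of genes that break down arginine, degrade heme and support tissue repair. The genes followed here are Arg1, Nos2, Slc7a2, Ass1 and Odc1 of arginine metabolism, Hmox1 of heme handling, and Mrc1, Chil3, Vegfa and Thbs1 of repair and vessel growth. They were chosen by name for these roles, with earlier results of these data known. All 10 are among the 55491 gene rows of the deposited matrix. They are followed along monocytes P1-P2, macrophages P3, macrophages P5 and microglia, the names given by the authors' cell annotation.

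The study asked, per its title, about the axis of Siglec receptors and sialic acid in glioblastoma. Its libraries are 10x 5' single-cell RNA-seq of live cells sorted as positive for CD45, CD11b or both, from the tumour-bearing hemisphere of mice with CT-2A glioma, a mouse glioma line. In 4 mice (KO) the tamoxifen-inducible Cre driven by Sall1 was combined with floxed Siglece (Sall1CreERT2 x Siglece fl/fl, labelled Siglece KO). The 3 control mice (WT) had floxed Siglece and no Cre. All 7 mice were 8 to 12 weeks old when 50000 CT-2A cells were injected. All received 2.5 mg tamoxifen per injection, daily from day 7 to day 21 and every other day thereafter, so the controls share the drug and the floxed alleles but not the driver allele. The driver allele comes from a B6;129 and the floxed allele from a B6.129P2 background. Sall1 marks microglia among brain immune cells, so the monocyte-derived populations are not the labelled target of the deletion. Each mouse gave 1 library, made from frozen and thawed cells, and the mouse is the replicate throughout. By Xist and Y-linked genes KO 1, KO 2 and WT 3 were female and the other mice male, so sex was not balanced between the groups.

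Arginine enters macrophages through cationic amino acid transporters and is then contested by arginase, which yields ornithine and urea, and by nitric oxide synthase, which yields nitric oxide and citrulline. Ornithine feeds polyamine synthesis through ornithine decarboxylase, and citrulline is turned back towards arginine by argininosuccinate synthase. In tumours, arginase-rich macrophages are known to deprive T cells of arginine, while heme oxygenase, mannose receptor and angiogenic factors are associated with a repair-like state.

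The libraries held 28644 cells, with 1410 to 5856 cells per mouse and a median of 4479 to 9554 UMIs (unique molecular identifiers, counted transcripts) per cell. Of these cells, 1521 were monocytes P1-P2, 2095 were macrophages P3, 3459 were macrophages P5 and 414 were microglia. Microglia join 163 cells named microglia and 251 named low-quality or activated microglia. KO 3 had only 13 microglia and was left out of the microglia levels and fits, which leaves 3 KO and 3 WT mice there. Siglece, whose deleted exons are not given in the sources used here, had 2, 1, 0 and 0 UMIs in the microglia of KO 1 to KO 4 (10.7, 19.6, 0 and 0 CPM), and 20, 19 and 7 in those of WT 1 to WT 3 (36.1, 45.9 and 18.6 CPM). KO 2, with the 1 UMI, was thus above WT 3 per UMI sequenced. Libraries shared 460 cell barcodes, carried by 926 cells. The names fitted their markers in part: 9 of 9 microglia markers were highest in microglia, and 8 of 8 monocyte markers other than Chil3 were highest in monocytes P1-P2. Of 8 macrophage markers other than Arg1, only Gpnmb was highest in P3, and Ms4a7, Apoe and Cd72 were highest in P5. C1qa, C1qb and C1qc were highest in microglia (C1qa 6141 CPM, against 4710 in P5), and Lyz2 was highest in P1-P2 (9667 CPM, against 6103 in P5). Of 7 markers of border-associated macrophages other than Mrc1, Pf4, Cbr2 and Siglec1 were highest in P5, F13a1 was highest in P3 (445 CPM, against 157 in P5), Folr2 was highest in microglia (7.95 CPM), and Lyve1 and Cd163 were at or near 0 in all 4 populations. Levels are given as counts per 1000000 (CPM), the UMIs of a gene scaled to 1000000 UMIs of the population in a mouse. The populations were annotated from the same cells, so differences between them are described by mouse and carry no test.

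Chil3 and Mrc1 ran in opposite directions along the monocyte-derived populations, and the sequence just upstream of each gene is shown for that reason. Both come from RefSeq (GRCm38.p6) and run 5' to 3' on the strand of the gene. The Chil3 stretch is chr3:106167565-106167814, minus strand, and the Mrc1 stretch is chr2:14229164-14229391, plus strand, ending before the first annotated base of the gene. Capitals mark TTCCTC, the reverse complement of the PU.1 core GAGGAA. PU.1 is the myeloid transcription factor.
Chil3: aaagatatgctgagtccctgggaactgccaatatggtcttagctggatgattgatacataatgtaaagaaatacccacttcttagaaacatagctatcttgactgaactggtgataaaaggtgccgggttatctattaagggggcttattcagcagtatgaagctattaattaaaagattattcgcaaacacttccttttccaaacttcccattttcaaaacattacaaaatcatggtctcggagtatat
Mrc1: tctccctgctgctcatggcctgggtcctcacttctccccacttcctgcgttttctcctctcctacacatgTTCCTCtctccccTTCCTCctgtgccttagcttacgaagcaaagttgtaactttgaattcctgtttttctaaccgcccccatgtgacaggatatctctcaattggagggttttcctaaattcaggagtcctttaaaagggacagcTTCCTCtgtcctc
The Mrc1 stretch held 3 matches to GAGGAA, at 180, 167 and 35 bases before the RefSeq start. That start follows base 14229413, beyond the end of the printed stretch at 14229391, so fewer printed bases follow each match. The Chil3 stretch held none of GAGGAA, TTGCNNAA (C/EBP), TGANTCA (AP-1) or ACGTG (hypoxia response core), read on both strands. Of 32851 RefSeq promoters of 250 bases, 23.3% held GAGGAA, 9.56% TTGCNNAA, 6.75% TGANTCA and 16.6% ACGTG. A match is a run of letters and not a bound site, and 5 of the 10 genes had a promoter in the table used. Vegfa, which like Chil3 was lower in P5 than in P3, held 1 match to GAGGAA, 35 bases before 1 of its RefSeq starts. Ass1 and Odc1 held no match to GAGGAA. Only these exact letters were searched, so the absence of a match is not the absence of a PU.1 site.

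Arg1, arginase 1 (chr10:24915221-24927484, minus strand), was concentrated in macrophages P3. Its level there was 2127, 1241, 604 and 1099 CPM in KO 1 to KO 4 and 413, 1362 and 1645 CPM in WT 1 to WT 3. In monocytes P1-P2 it was 445, 443, 187 and 255 CPM in the KO mice and 54.2, 673 and 496 CPM in the WT mice. In macrophages P5 it was 317, 381, 171 and 272 CPM in the KO mice and 41.9, 418 and 479 CPM in the WT mice. P3 was thus above both other populations in 7 of 7 mice, while WT 1 was the lowest mouse in each population. The mean over mice was 1213 ± 587 CPM in P3 (SD, n = 7), 3.33 times that of P1-P2 (365 ± 210) and 4.08 times that of P5 (297 ± 151). P5 was below P1-P2 in 6 of 7 mice, with a log2 difference within mice of -0.26 ± 0.27 (P5 over P1-P2, mean ± SD). Microglia were lowest, at 68.5 ± 71.8 CPM (n = 6), below P5 in 6 of 6 mice. Of all Arg1 UMIs in the matrix, 57.2% were in P3 and 24.3% in P5. Outside the myeloid cells Arg1 was scarce: T cells, which give a guide to free RNA in the droplets, held 2.66 to 35.0 CPM per mouse. B cells held up to 64.6 CPM, in WT 3, on 8 UMIs in 25 cells.

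Nos2, the inducible nitric oxide synthase (chr11:78920787-78960254, plus strand), was a low-level gene with its highest mean in the same population. In P3 it stood at 162, 23.05, 14.1 and 38.8 CPM in KO 1 to KO 4 and at 13.5, 24.8 and 78.0 CPM in WT 1 to WT 3. KO 1 was far above the rest, with 153 UMIs in 30 of its 64 P3 cells and 22 of them in 1 cell. The P3 mean was 50.6 ± 53.8 CPM and the P1-P2 mean 42.4 ± 28.5 CPM. Within mice the log2 difference was -0.07 ± 1.31 (P3 over P1-P2), and P1-P2 was the higher population in 5 of 7 mice. Without KO 1 the highest mean moved to P1-P2. P5 was lower than P3 in 7 of 7 mice, at 16.0 ± 10.3 CPM. Microglia held 5.23 ± 6.19 CPM and T cells 0 to 2.51 CPM.

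Slc7a2, a cationic amino acid transporter that brings arginine into the cell (chr8:40862396-40922308, plus strand), also had its highest mean in P3. It was 139, 148, 33.6 and 79.5 CPM in P3 of the KO mice and 16.5, 88.2 and 116 CPM in P3 of the WT mice. WT 1 was again the lowest mouse, as it also was in P1-P2 (28.9 CPM) and P5 (7.33 CPM). P1-P2 averaged 85.5 ± 37.9 CPM and P3 88.8 ± 50.4 CPM, with a log2 difference within mice of -0.11 ± 0.86 (P3 over P1-P2). P3 was the higher of these populations in 3 of 7 mice and the lower in 4, and leaving out KO 1 or KO 2 put P1-P2 first. P5, at 38.5 ± 18.7 CPM, was below P3 in 7 of 7 mice, and the microglia mean was 12.3 ± 18.2 CPM. KO 1 carried most of that mean with 48.2 CPM, and the other mice had 0 to 13.3 CPM. KO 2 had 0 Slc7a2 UMIs in microglia, which allows up to 58.7 CPM, more than its 49.2 CPM in P5, so its order is not known.

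Ass1, argininosuccinate synthase (chr2:31470207-31520672, plus strand), and Odc1, ornithine decarboxylase (chr12:17544794-17551505, plus strand), were not centred on macrophages. Ass1 had its highest mean among the 23 annotated populations in cDC2, type 2 conventional dendritic cells (829.2 ± 202 CPM, n = 7). Within the populations followed here it stepped down from 336 ± 134 CPM in P1-P2 to 216 ± 68.8 in P3, 74.5 ± 33.4 in P5 and 31.0 ± 19.8 in microglia. P5 was below P3 in 7 of 7 mice, and P3 below P1-P2 in 6 of 7. Of the Ass1 UMIs, 30.9% came in values that are not whole numbers, as against at most 0.27% for any other of the 10 genes, and reads may be divided with the near-identical copy Gm5424, so its levels are uncertain. Odc1 was highest in regulatory T cells (1909 ± 407 CPM, n = 6), and 66.3% of its UMIs were in T cells. Among the 4 populations its means ran only from 116 ± 42.2 CPM in P5 to 148 ± 66.0 CPM in microglia. Within the 6 mice with both, the log2 difference was 0.22 ± 0.25 (microglia over P5), with microglia higher in 4 mice and lower in 2.

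**Figure D1:**
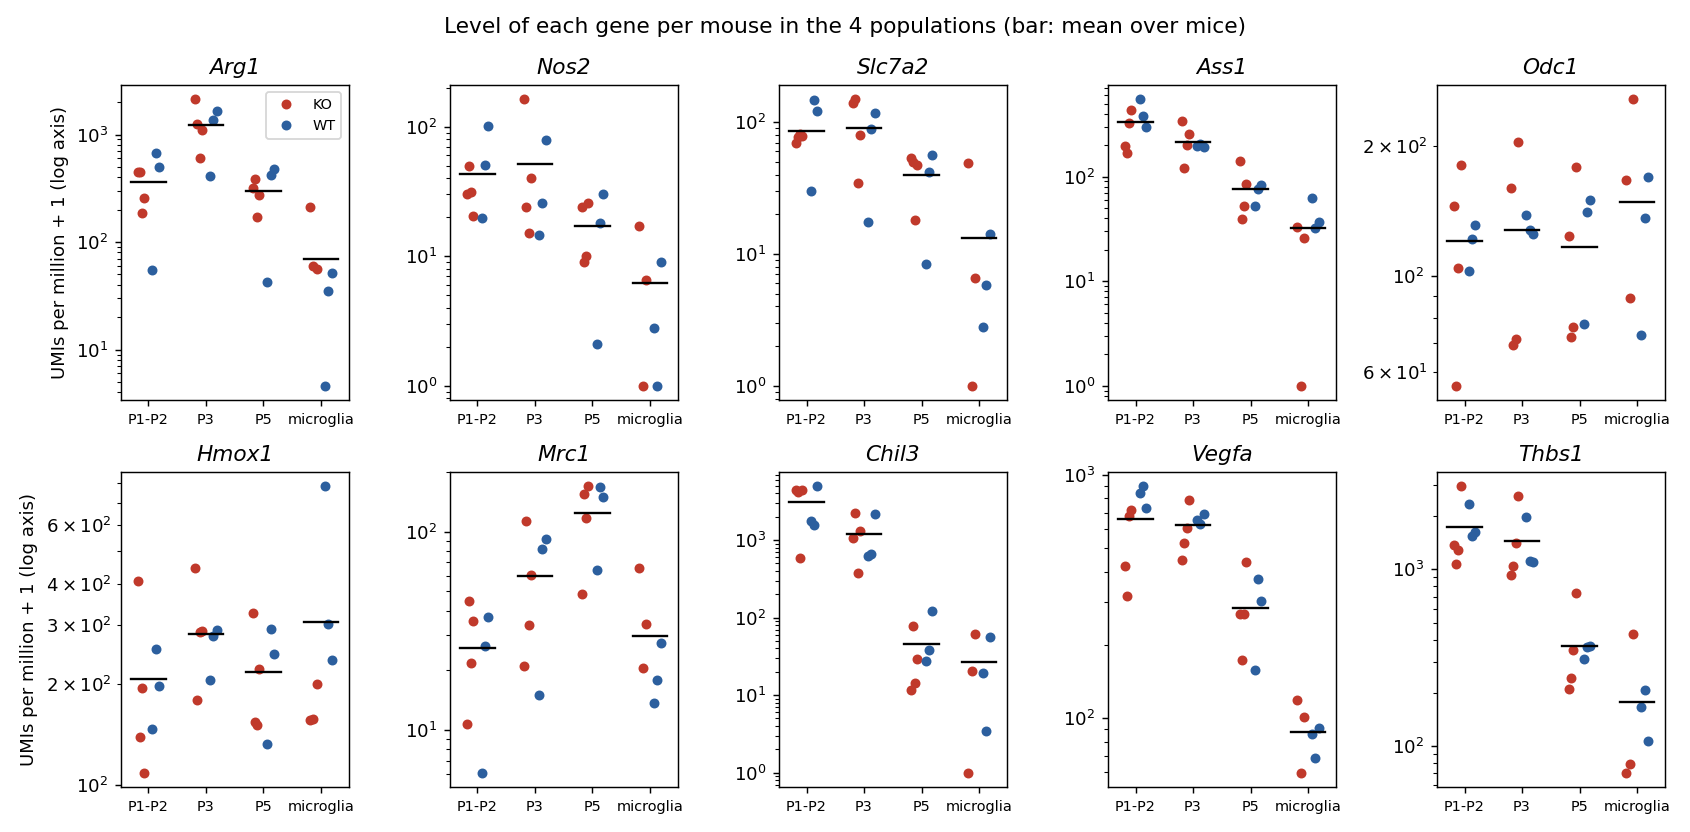
Level of each of the 10 genes in the 4 populations, as CPM plus 1 on a log axis, with 1 point per mouse (KO red, WT blue) and a bar at the mean over mice; microglia of KO 3 are left out. Arg1 peaks in P3 at 1213 CPM, Chil3 is at 3134 CPM in P1-P2 and 44.6 CPM in P5, and Mrc1 is at 25.1 and 124 CPM in the same populations.

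Hmox1, heme oxygenase 1, which cleaves heme to biliverdin, iron and carbon monoxide (chr8:75093621-75100589, plus strand), was present at similar levels in all 4 populations. The means were 206 ± 100 CPM in P1-P2, 281 ± 84.6 in P3, 217 ± 75.1 in P5 and 306 ± 240 in microglia. P3 was above P1-P2 in 7 of 7 mice, by 1.37 times in the mean, and above P5 in 6 of 7. In microglia the levels were 155, 157 and 200 CPM in KO 1, KO 2 and KO 4 and 783, 302 and 236 CPM in WT 1 to WT 3. WT 1 held 434 Hmox1 UMIs in 113 microglia, and 322 of them were in 1 cell. Without WT 1 the highest mean was in P3 and not in microglia.

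Mrc1, the mannose receptor CD206 (chr2:14229392-14332057, plus strand), was higher at each step along the monocyte-derived populations. It was 9.75, 43.9, 20.7 and 34.3 CPM in P1-P2 of KO 1 to KO 4 and 5.12, 25.7 and 36.0 CPM in P1-P2 of WT 1 to WT 3. In P5 it was 47.5, 153, 117 and 169 CPM in the KO mice and 63.1, 168 and 149 CPM in the WT mice. The lowest P5 value was above the highest P1-P2 value, and each step, P1-P2 to P3 and P3 to P5, went up in 7 of 7 mice. The means were 25.1 ± 14.2, 58.8 ± 37.9 and 124 ± 49.9 CPM, 4.93 times as high in P5 as in P1-P2. KO 1 and WT 1 were the lowest mice in all 3 populations. Microglia, at 28.9 ± 18.8 CPM, were below P5 in 5 of 6 mice.

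Chil3, the chitinase-like protein Ym1, a marker of alternative activation and of classical monocytes in mice (chr3:106147554-106167564, minus strand), ran the other way. In P1-P2 it was 4396, 4173, 586 and 4457 CPM in KO 1 to KO 4 and 1778, 1566 and 4985 CPM in WT 1 to WT 3. In P3 it was 1074, 2215, 372 and 1291 CPM in the KO mice and 625.02, 651 and 2148 CPM in the WT mice. In P5 it was 10.6, 75.8, 13.1 and 27.8 CPM in the KO mice and 26.9, 36.6 and 122 CPM in the WT mice. Every P5 value was below every P3 value, and the level was lower at both steps in 7 of 7 mice. The means were 3134 ± 1763, 1196 ± 738 and 44.6 ± 40.2 CPM, so that P3 was 26.8 times and P1-P2 70.2 times P5. In T cells Chil3 was at 1.13 to 31.3 CPM per mouse, highest in KO 2. Each P5 value was above the T cell value of the same mouse. KO 1 had 10.6 against 1.13 CPM, KO 2 75.8 against 31.3 CPM and WT 1 26.9 against 7.68 CPM. The microglia mean, 25.9 ± 26.0 CPM, lay within the range of T cells over mice.

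Vegfa, the main angiogenic growth factor (chr17:46016993-46032369, minus strand), and Thbs1, thrombospondin 1, a matrix protein that restrains vessel growth and activates latent TGF-beta (chr2:118111876-118127133, plus strand), were both high in P1-P2 and P3. Vegfa averaged 658 ± 214 CPM in P1-P2, 619 ± 112 in P3, 282 ± 100 in P5 and 86.5 ± 21.5 in microglia. Its log2 difference within mice, P3 over P1-P2, was -0.03 ± 0.40, with P3 higher in 3 mice and lower in 4. The Vegfa ranges in P3 and P5 did not overlap, nor did those in P5 and microglia. Thbs1 averaged 1742 ± 669 CPM in P1-P2, 1454 ± 619 in P3, 368 ± 173 in P5 and 175 ± 134 in microglia. It was lower in P5 than in P3 in 7 of 7 mice, by 3.95 times in the mean, with ranges that did not overlap. KO 4 had the highest Thbs1 level in each of the 4 populations, among them 2965 CPM in P1-P2. In its microglia, 62 of the 77 Thbs1 UMIs were in 1 cell.

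Counted together, 7 of the 10 genes were lower in P5 than in P3 in every mouse: Arg1, Nos2, Slc7a2, Ass1, Chil3, Vegfa and Thbs1. Of the 8229 genes with a mean of at least 10 CPM in either population, 9.59% were lower in every mouse. Only Mrc1 was higher in P5 than in P3 in every mouse, as were 14.1% of those genes. From P1-P2 to P3, Arg1, Hmox1 and Mrc1 were higher in P3 in every mouse, against 9.21% of genes, and Chil3 was lower, against 7.43%. Arg1, Vegfa and Thbs1 were lower in microglia than in P5 in 6 of 6 mice, as was Slc7a2 if the 0 UMIs of KO 2 are taken as 0, against 13.3% of genes counted in that way, and no member was higher there in 6 of 6, against 24.6%. By mean level, 4 genes were highest in P1-P2, 3 in P3, 1 in P5 and 2 in microglia, against 16.2%, 8.65%, 17.6% and 57.6% of all genes at that level. The populations were drawn from the expression of the same cells, so these shares describe the list and support nothing further.

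**Figure D2:**
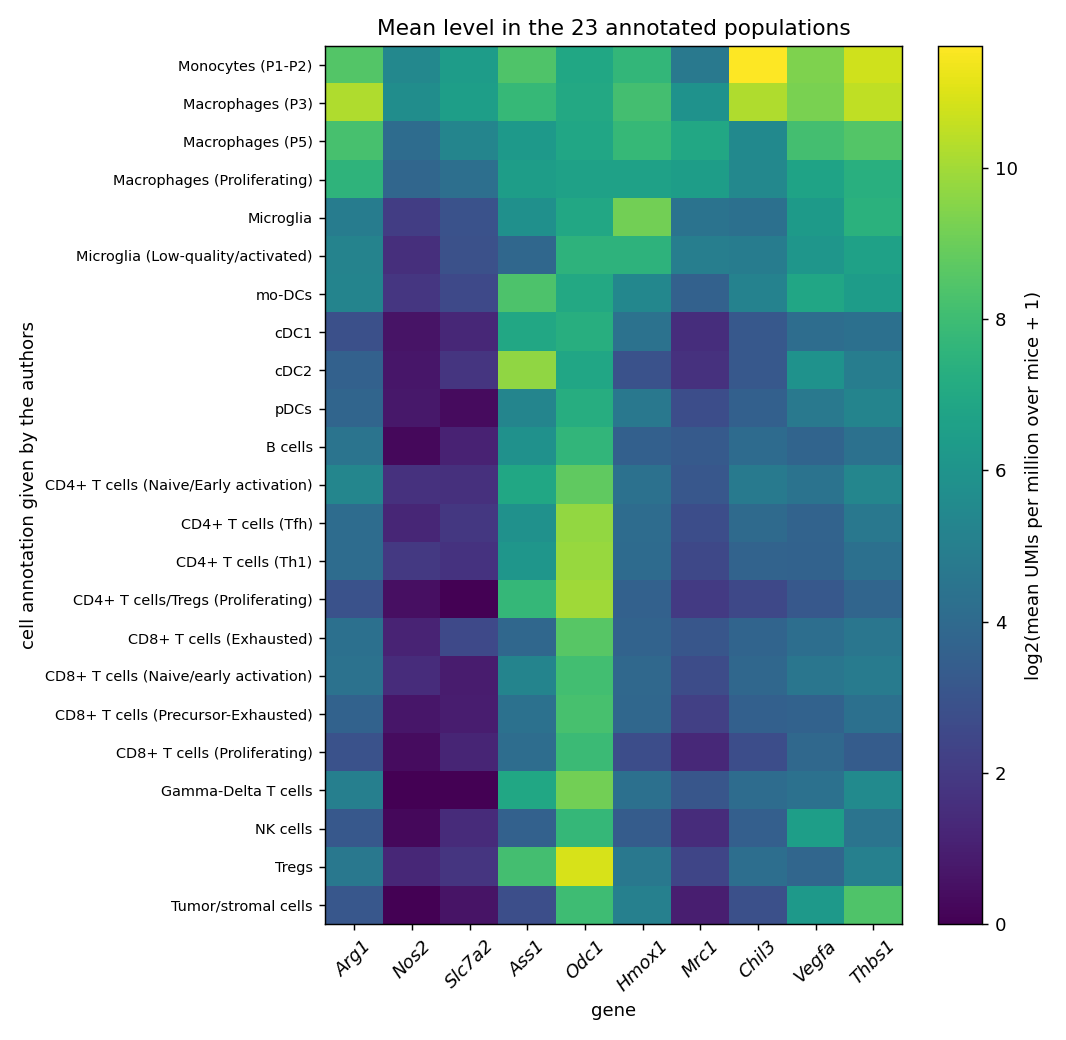
Mean level of the 10 genes in the 23 annotated populations, as log2 of the mean CPM over mice plus 1 (colour), over mice with at least 20 cells of the population. Arg1, Chil3, Vegfa and Thbs1 are brightest in P1-P2 and P3, whereas Odc1 is brightest in T cells and Ass1 in cDC2. The main microglia annotation rests on 3 mice, all WT.

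The genes whose level followed each member most closely over the 23 populations were found by Pearson's r of log2(CPM + 1), among 10996 genes. These populations share libraries and depth, so r is a description only. Closest to Arg1 were Apoc2 and Gm44805 (r = 0.97 each) and F13a1 (0.95), all highest in P3. Nos2 and Slc7a2 were each other's closest gene (0.95), again highest in P3. Thbs1 ran with Fn1, fibronectin (0.99), and Vegfa had Thbs1 among its closest 3 (0.91). Chil3 ran with Chil1, F10 and Hp, which peak in P1-P2 (0.97, 0.96 and 0.95). Mrc1 ran with Ms4a7, Apoe and Clec4a2 (0.97, 0.96 and 0.96). Hmox1 ran with Lrpap1, Ccl2 and Plxna4os1 (0.96 each). Its highest level over the 23 was in the main microglia annotation (572 ± 475 CPM), which rests on 3 mice, all WT. In WT 1, 322 of the 410 Hmox1 UMIs of that annotation were in 1 cell. Ass1 ran with its copy Gm5424 (0.94), then with Pim1 (0.87) and Got1 (0.85), and the 3 closest to Odc1 were T cell receptor alpha segments (0.93 each).

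Among single cells, each thinned at random to 2000 UMIs so that depth is equal, an Arg1 UMI was found in 25.4 ± 11.2% of P1-P2 cells, 55.1 ± 17.7% of P3 cells and 21.3 ± 9.88% of P5 cells (n = 7 mice). The share was 6.78 ± 6.74% in microglia (n = 5) and 3.44 ± 2.50% in T cells. Without thinning the shares were 35.3%, 66.9%, 33.5%, 12.4% and 7.15%. Thinning left out 10 KO and 12 WT cells of P1-P2, 20 and 24 of P3, 61 and 58 of P5 and 28 and 69 of the microglia as too shallow. In the cells kept, median depth before thinning was 5769, 6144, 6599.5 and 3850 UMIs in the 4 populations and 4905 in T cells. Cells of P3 differed in which other members they carried. P3 cells with a Nos2 UMI held an Arg1 UMI in 81.2 ± 8.06% of cases, against 57.3 ± 16.5% of P3 cells without one, and this held in 6 of 6 mice with enough cells. In P5 the same shares were 58.9 ± 7.29% and 26.9 ± 4.71%, in 4 of 4 mice. Arg1 was thus more frequent in cells with Nos2 than in cells without it in each of these mice. In P1-P2 the shares were 37.0 ± 28.2% and 27.8 ± 13.6%, higher with Nos2 in 3 of 4 mice.

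Slc7a2 gave a like picture in P3, where 74.7 ± 5.31% of cells with its UMI and 56.8 ± 16.1% of cells without it held Arg1 (higher in 6 of 6 mice). For Thbs1 the shares were 62.1 ± 21.1% and 37.7 ± 16.8% (7 of 7), and for Vegfa 60.0 ± 19.0% and 47.4 ± 16.0% (7 of 7). Chil3 (63.6 ± 19.8% and 48.9 ± 15.8%, 7 of 7), Hmox1 (6 of 7) and Mrc1 (4 of 5) went the same way in P3. In P1-P2 the mice were divided for Chil3 (higher in 4 of 7) and Hmox1 (3 of 7), and Mrc1 was higher in 4 of 5. Vegfa was higher there in 7 of 7 mice (29.4 ± 15.1% and 19.2 ± 8.73%), Thbs1 in 6 of 7 and Slc7a2 in 5 of 6. In P5 Slc7a2, Vegfa, Thbs1 and Hmox1 were each higher in 7 of 7 mice, Chil3 in 5 of 6 and Mrc1 in 5 of 7. Genes outside the 10 were not compared in this way, so the pattern is not shown to be particular to any of them. For Ass1 and Odc1 the mice were divided in P3: Arg1 was found in 54.4 ± 12.4% of cells with Ass1 and 56.0 ± 21.1% without, higher in 3 of 7 mice. For Odc1 it was 55.5 ± 20.6% and 54.6 ± 17.3%, higher in 4 of 7. In P5 the Odc1 shares were 25.5 ± 11.6% and 20.4 ± 9.41%, and in P1-P2 30.1 ± 17.8% and 24.7 ± 10.5%, higher with Odc1 in 6 of 7 mice in both. For Ass1 they were higher in 5 of 7 mice in both. Cells of 1 mouse are not replicates, so these shares are compared over mice and carry no test.

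**Figure D3:**
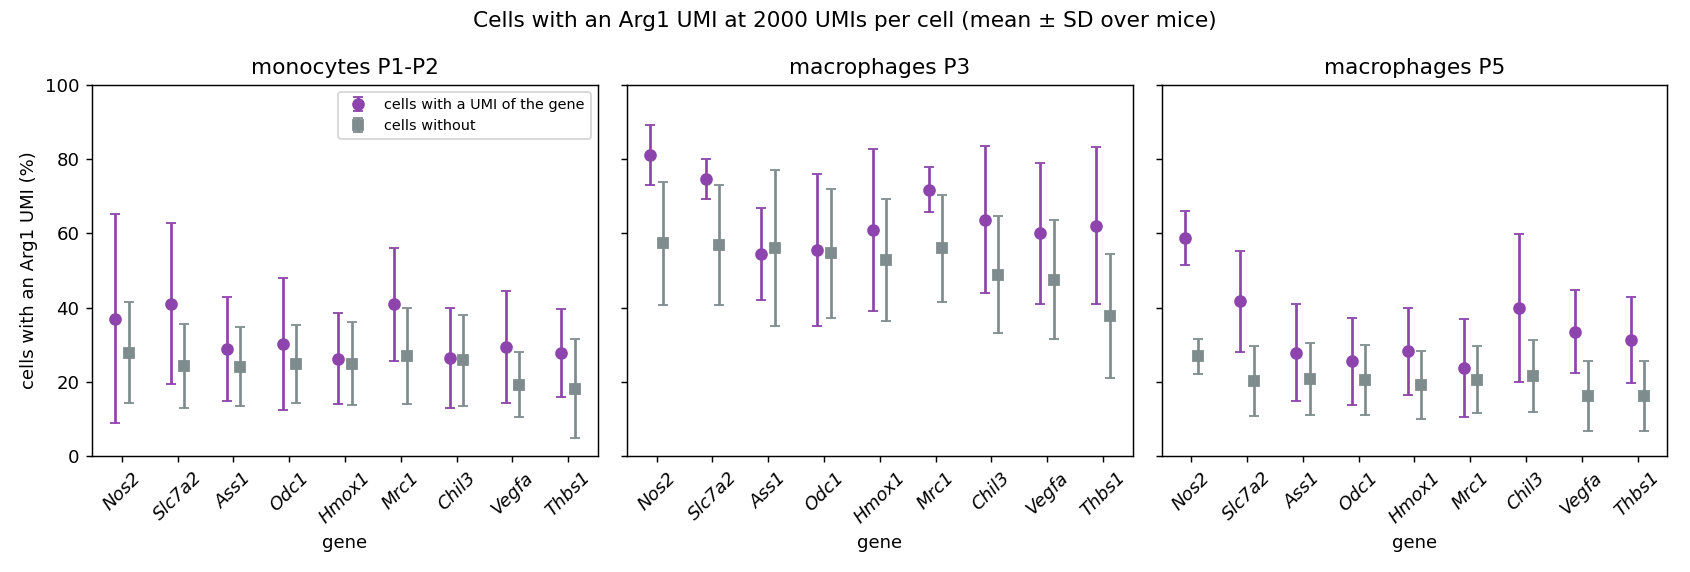
Share of cells with an Arg1 UMI (%), among cells that hold a UMI of the gene named on the horizontal axis (circles) and cells that do not (squares), after thinning to 2000 UMIs; points are means and bars SDs over mice. In P3 the circle is above the square for Nos2 (81.2% against 57.3%) and Thbs1 (62.1% against 37.7%) and level with it for Ass1 and Odc1.

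Other genes of the same pathways were placed along the populations in the same way. They come from lists chosen by function with earlier results of these data known, so the shares below describe the lists only. Of the hypoxia and angiogenesis list, 10 of 18 genes at 10 CPM or more were highest in P3 (against 8.65% of all genes), among them Ldha, lactate dehydrogenase, at 920 ± 346 CPM, and Pgk1 at 420 ± 163 CPM. Of the nitric oxide and inflammatory list, 12 of 18 were highest in P1-P2 (16.2% of all genes), among them Il1b at 5661 ± 1242 CPM. Of the repair list, 7 of 21 were highest in P1-P2 and 7 in P3, where Spp1, osteopontin, reached 1197 ± 834 CPM. The arginine uptake and polyamine list had 2 of 17 genes highest in P3, and the heme and iron list 1 of 18, both near the 8.65% of all genes. That heme and iron gene was Fth1, the ferritin heavy chain, at 19186 ± 2231 CPM. In P1-P2, P5 and microglia the heme and iron list had 5, 6 and 6 of 18 genes highest. There the arginine list had 4, 3 and 8 of 17, against 16.2%, 17.6% and 57.6% of all genes.

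The comparison of KO with WT asked whether loss of Siglece in Sall1-driven cells went with a change in these genes. No member passed the test in any population: 0 of 10 in P1-P2, P3 and P5 and 0 of 5 tested in microglia, by edgeR's quasi-likelihood test with Benjamini-Hochberg adjustment over all genes at 0.05. Across all genes 0.0% were called in P1-P2 and P3, 0.0188% in P5 and 0.0415% in microglia. DESeq2 called 6, 6, 20 and 6 genes in the 4 populations. At an unadjusted p under 0.05, edgeR had 1 member in P1-P2 (6.74% of all genes), 0 in P3 (5.42%), 0 in P5 (6.79%) and 1 in microglia (11.9%). In microglia Nos2, Slc7a2, Ass1, Mrc1 and Chil3 were too low to be tested. The median log2 fold change (KO over WT) of the members was -0.25 in P1-P2, 0.14 in P3, 0.01 in P5 and 0.44 in microglia, with medians of all genes of 0.00, 0.01, 0.00 and 0.00. In simulated counts of these libraries, 4-fold changes were recovered in 91.9%, 92.7%, 91.8% and 83.2% of genes in P1-P2, P3, P5 and microglia, and 2-fold changes in 39.6%, 52.7%, 58.9% and 23%. The changed genes were drawn at random from all genes tested, so these shares are not recovery rates for the members. Among the members, SEs on the log2 scale reached 1.06 for Nos2 in P3 and 0.95 for Arg1 in microglia.

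Arg1 in P3, where it is highest, had a log2 fold change of 0.15 with an SE of 0.59 (edgeR, adjusted p 0.995), and the KO mice (604 to 2127 CPM) overlapped the WT mice (413 to 1645 CPM). Nos2 in P3 had 0.49 with an SE of 1.06, and Slc7a2 0.42 with an SE of 0.76. These genes vary among mice of 1 genotype by more than they differ between genotypes, with WT 1 low and KO 1 high. For Slc7a2 in P3 the female mice KO 1, KO 2 and WT 3 (139, 148 and 116 CPM) were all above the male mice. The males KO 3, KO 4, WT 1 and WT 2 had 33.6, 79.5, 16.5 and 88.2 CPM. For Arg1 and Nos2 in P3 the sexes overlapped. The part of sex in this spread was not tested. Vegfa in P3 (-0.15, SE 0.21) and Hmox1 in P3 (0.21, SE 0.28) had smaller errors. The most negative values among the members in P1-P2, P3 and P5 were those of Chil3 in P5 (-0.91, SE 0.87) and Nos2 in P1-P2 (-0.89, SE 0.63), with KO and WT mice overlapping for both.

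Vegfa in P1-P2 was the one member of the monocyte-derived populations whose groups did not overlap. It was 419, 318, 677 and 716 CPM in KO 1 to KO 4 and 844, 899 and 731 CPM in WT 1 to WT 3. The female mice KO 1, KO 2 and WT 3 were the lowest of their genotype, and the part of sex in these values was not tested. Each of the 4 KO values was under the lowest of the 3 WT values, a pattern that 3.12% of all genes showed. No member had its KO mice all above its WT mice there (4.57% of genes), and in P3 and P5 no member had groups apart in either direction (3.08% of genes higher and 3.36% lower in all KO mice in P3, 2.81% and 4.51% in P5). KO over WT was -0.66 on the log2 scale (SE 0.25; edgeR, p 0.0229, adjusted p 0.683), so the difference did not pass over all genes. With no filter on low counts the adjusted p was 0.0306. Over the other alternatives it ran from 0.268 to 0.988. In P1-P2 the hypoxia and angiogenesis list as a whole had 15 of 17 tested genes below 0, with a median log2 fold change of -0.32 against 0.00 for all genes. None of the 17 passed the adjusted test (lowest adjusted p 0.535), and Ldha, for example, stood at -0.44 (SE 0.19). In P3 the same list had 11 of 17 genes above 0 (median 0.087) and in P5 8 of 18 (median -0.11). Whether the genotype effect differed among P1-P2, P3 and P5 was tested directly: 3 of 10707 genes (0.028%) passed and no member did, with the lowest adjusted p at 0.803, for Vegfa (edgeR).

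**Figure D4:**
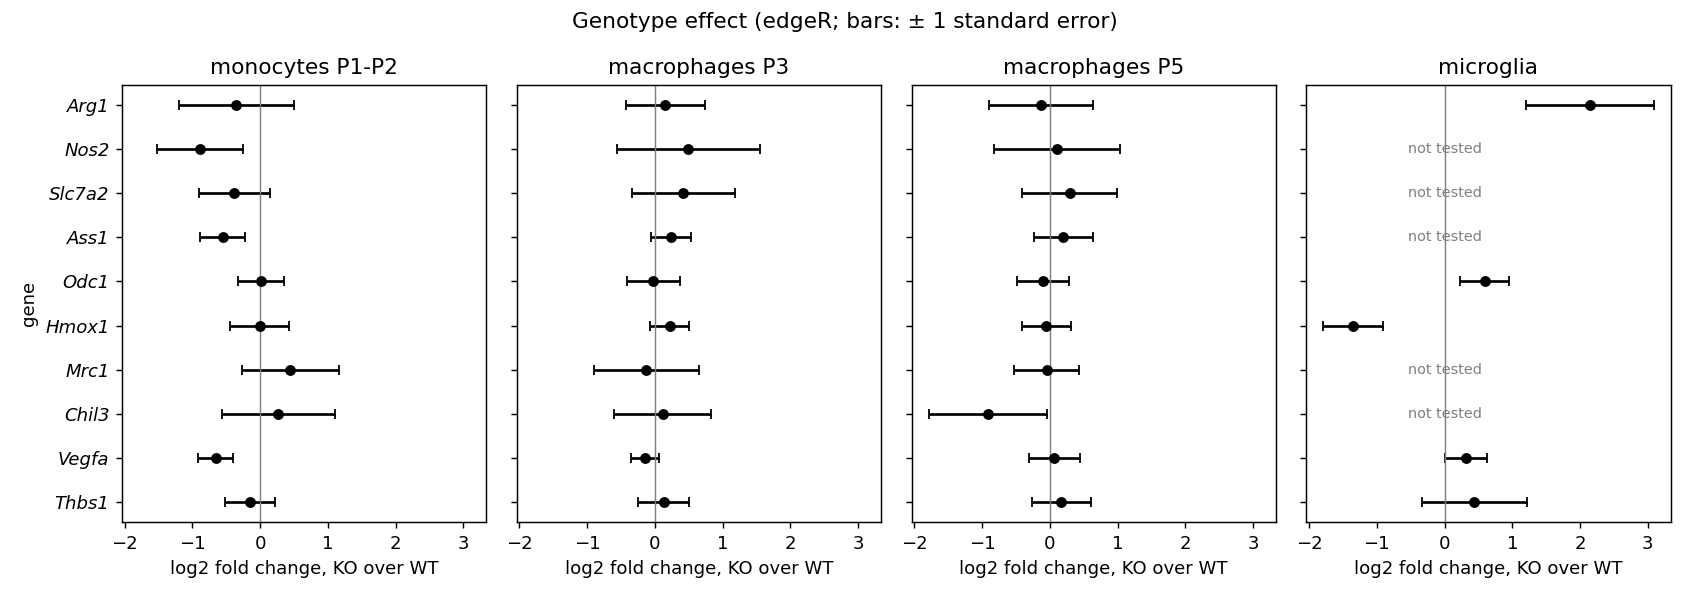
Log2 fold change of KO over WT for each gene in the 4 populations (points) with bars of 1 standard error, from edgeR; genes marked as not tested were below the count filter. In P1-P2 Vegfa lies at -0.66, and in microglia Arg1 lies at 2.14 and Hmox1 at -1.35, none of them past the adjusted threshold.

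In microglia, the labelled target of the deletion, Arg1 and Hmox1 had fold changes of opposite sign, and both rest on few transcripts. Arg1 was 209, 58.7 and 55.5 CPM in KO 1, KO 2 and KO 4 and 3.61, 33.8 and 50.4 CPM in WT 1 to WT 3. T cells of the same mice, a guide to free RNA, held 10.2, 35.0 and 9.45 CPM (KO) and 2.95, 17.8 and 21.1 CPM (WT). In microglia the KO mice lay above the WT mice for Arg1, as they did for 8.9% of all genes there. KO over WT was 2.14 on the log2 scale (SE 0.95; edgeR, adjusted p 0.468). Hmox1 was lower in each KO mouse than in any WT mouse, as were 9.75% of genes, at a log2 fold change of -1.35 (SE 0.44; edgeR, p 0.0117, adjusted p 0.260). With no filter on low counts the adjusted p was 0.0395 for Arg1 and 0.000504 for Hmox1. Over the other alternatives it ran from 0.287 to 0.895 for Arg1 and from 0.0568 to 0.892 for Hmox1. In low-quality or activated microglia alone the Hmox1 difference turned to 0.46 (SE 0.42). That fit rests on 2 KO and 3 WT mice, as KO 2 had only 14 such cells and KO 3 only 13. The make-up of the microglia was apart between the groups fitted, on few KO cells and without a test. Cells of the main microglia annotation were 10 of 30, 7 of 21 and 15 of 49 in KO 1, KO 2 and KO 4 and 44 of 113, 48 of 92 and 39 of 96 in WT 1 to WT 3. KO 3, left out of the fits, had 0 of 13. In that annotation Hmox1 was 148, 186 and 152 CPM in the KO mice, on 5 to 17 UMIs each, and 1113, 376 and 226 CPM in the WT mice. In the low-quality or activated cells it was 167, 124 and 258 CPM in the KO mice and 129, 77.8 and 263 CPM in the WT mice, which overlap. The part of the make-up in the joined value was not tested.

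Whether the genotype effect in microglia differed from that in P1-P2, P3 and P5 joined was tested in a model with a term for each mouse, and 56 of 11710 genes (0.478%) passed. Arg1 was the 1 member among them, with a difference of 1.74 on the log2 scale (edgeR, adjusted p 0.00851). The microglia of KO 1, KO 2 and KO 4 held 39, 3 and 10 Arg1 UMIs and those of WT 1 to WT 3 held 2, 14 and 19, and 33 of the 39 UMIs in KO 1 were in a single cell with 15851 UMIs in all. That cell also held 8 UMIs of Ms4a7, a marker of monocyte-derived macrophages, beside 9 of Tmem119 and 10 of Fcrls, which mark microglia. When in each mouse the microglia with the most Arg1 UMIs and with the most Hmox1 UMIs were left out, the Arg1 difference was 0.38, and Hmox1 in microglia was -0.71. Those cells were picked by these same UMIs, so smaller values follow from the choice, and the step shows only how much of each value the cells carried. Without KO 1 the Arg1 difference was 0.89 (adjusted p 0.735). It also missed the threshold without WT 1 (1.67, adjusted p 0.0720), WT 2 (1.65, 0.128) or WT 3 (1.86, 0.0748). The summed level of 8 T cell markers, all of them above 0 in both groups, was 102 to 144 CPM in KO microglia and 10.8 to 53.1 CPM in WT microglia. The same markers were also apart in P3 (KO 43.3 to 107 CPM, WT 26.1 to 36.7 CPM) and in P5 (67.3 to 76.9 and 15.3 to 46.7 CPM), and overlapped in P1-P2. The 9 microglia markers summed to 5487 to 8848 CPM in KO microglia, lowest in KO 1, and to 7868 to 11154 CPM in WT microglia. The 5 NK cell markers summed to 42.9, 58.7 and 11.1 CPM in KO 1, KO 2 and KO 4 and to 1.81 to 13.3 CPM in the WT mice. The part of these shifts in the values of the members was not tested.

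**Figure D5:**
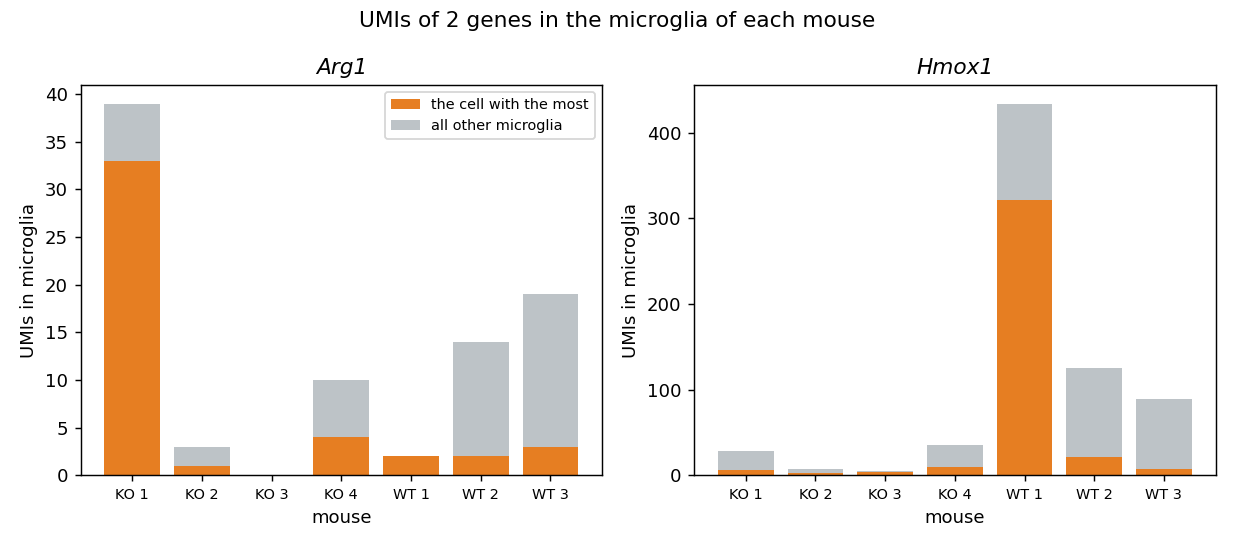
UMIs of Arg1 and Hmox1 in the microglia of each mouse (bars from 0), split into the cell with the most UMIs of the gene (orange) and all other microglia (grey); KO 3 was not in the fits. A single cell gives 33 of 39 Arg1 UMIs in KO 1 and 322 of 434 Hmox1 UMIs in WT 1.

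Genotype was compared on shares of cells as well, for 10 genes in 4 populations at 2000 UMIs per cell, by exact two-sided permutation tests over mice. With 4 against 3 mice these exact p-values cannot go below 0.0286, and in microglia, where 2 KO and 3 WT mice kept enough cells, not below 0.1. Adjusted over 40 comparisons, a single p at that limit cannot pass, so the adjusted values say nothing of whether the shares differed. The lowest unadjusted exact permutation p was 0.0286, for Hmox1 in P3, where 27.1 ± 1.67% of KO cells (n = 4) and 30.6 ± 1.61% of WT cells (n = 3) held a UMI, and its adjusted p was 1. The lowest exact permutation p was 0.1 over the same 40 comparisons without thinning. At 4000 UMIs, where 30 comparisons had enough mice, it was 0.114, so the separation of Hmox1 in P3 was lost in both. The share with Hmox1 in T cells was 2.71 ± 0.63%.

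For the pathway lists, no gene passed the adjusted edgeR test in any of the 4 populations. The arginine uptake and polyamine list had 7 of 16 tested genes above 0 in P1-P2, 8 of 17 in P3 and 8 of 17 in P5, with medians of -0.059, -0.025 and -0.028. Sat1, the enzyme that acetylates polyamines, stood at 0.036 in P3 (SE 0.18). The nitric oxide and inflammatory list had 5 of 17 above 0 in P1-P2, 9 of 17 in P3 and 11 of 16 in P5. The heme and iron list had 6 of 16, 8 of 17 and 10 of 17, and the repair list 8 of 19, 11 of 23 and 10 of 23. Spp1 of the repair list had the widest values, -1.25 in P3 (SE 0.82) and -1.69 in P5 (SE 0.68, adjusted p 0.729). In microglia these lists had 3 of 8, 8 of 11, 5 of 13 and 6 of 14 genes above 0, and the hypoxia list 5 of 13, with Pgk1 at -1.34 (SE 0.38, adjusted p 0.140). In the edgeR test of microglia against the joined populations 4 list genes passed, among 56 of all 11710 genes (0.478%). The arginine, nitric oxide, heme, repair and hypoxia lists hold 19, 20, 21, 30 and 23 genes. How many of these entered this test is not given here, so the 4 cannot be set against that share. The 4 genes were Pgk1 (-1.78, adjusted p 0.000457) and Bnip3 (-1.63, 0.0394) of the hypoxia list and Mmp12 (-4.19, 0.0113) and Gpnmb (-2.16, 0.0466) of the repair list. Each had a lower KO-over-WT value in microglia, as did most of the 56 genes. The 56 fell to 12 without KO 1 and to 20 without WT 1, and these 4 genes were not followed in those refits.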

How the data were processed

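Cells of 7 mice (4 KO, 3 WT; 1 library each) were analysed from the matrix and the cell table the authors deposited. The deposited matrix, made by the authors, holds unscaled UMI values, here taken as an expected count per gene and cell because 7.51% of the entries above 0 are fractions. Sums per mouse and population were rounded to whole numbers. The cell table deposited by the authors holds the library, the cell name, the count of detected genes and the percent of mitochondrial and of ribosomal UMIs of each cell. The submitters' processing notes name FastQC 0.11.5, STAR 2.7.10a, STARsolo and the build mm10; the cell filters, the handling of doublets and the clustering are not given in the sources used here. Gene positions come from GENCODE M21 (GRCm38), and promoters from RefSeq.

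Sums with at least 20 cells per mouse were fitted in edgeR 4.0.16 (TMM, filterByExpr, robust quasi-likelihood, R 4.3.3), 1 fit per population with a genotype term, or with mouse, population and interaction terms. The alternatives were DESeq2 1.42.0, other size factors, no low-count filter, leaving out each mouse, a replicate block, a sex term, whole values only, no cells of the top 10% by UMIs, equal cells per mouse and low-quality microglia alone. 1 alternative, without the microglia with the most Arg1 or Hmox1 UMIs, was chosen after seeing the data. Sex was read from Xist and Y-linked genes, and 3 mice (KO 1, KO 2 and WT 3) were female. Cells were thinned to 2000 UMIs for shares (4000 as an alternative), log2 levels used a pseudocount of 1, and no doublet caller was run. The code was tested on simulated data with known changes in 200 genes. The members, lists and markers were chosen with earlier results of these data known. Named genes are all 10 members, up to 4 genes per list with the highest level in the monocyte-derived populations, and the 3 genes most like each member; Ero1a was matched as Ero1l. Siglece, the marker genes that place the populations or describe 1 cell, and that cell itself were named after their values were seen. The labels say each library is from a separate mouse. The UMI sums per mouse run from 307548 in P1-P2 and 51086 in the microglia fitted; a gene with 0 UMIs in the latter may still be at up to 58.7 CPM, which is 3 UMIs and covers counting error only.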

Additional observations from a re-analysis of the deposited data

Results flagged for a closer look

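Each group of 4 KO mice was examined for a mouse far from the others, in 30 sets of values, and chance flags about 1 in 20 such groups. Chil3 in P1-P2 was 586 CPM in KO 3, against 4173 to 4457 CPM in the other KO mice. Thbs1 in P1-P2 was 2965 CPM in KO 4, against 1076 to 1379 CPM. Nos2 in P3 was 162 CPM in KO 1, against 14.1 to 38.8 CPM. Slc7a2 in P5 was 17.1 CPM in KO 3, against 46.7 to 52.3 CPM. Arg1 is listed for a difference in genotype effect between microglia and the joined P1-P2, P3 and P5 populations, 1.74 on the log2 scale (edgeR, adjusted p 0.00851), which was 0.89 (adjusted p 0.735) without KO 1.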

How the results depend on the processing

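The edgeR counts of genes called were 0, 0, 2 and 2 in P1-P2, P3, P5 and microglia. DESeq2 gave 6, 6, 20 and 6, and no low-count filter gave 70, 33, 117 and 46. In P5 whole values only gave 1, and dropping the top 10% of cells or equalizing cells gave 0. In microglia a sex term gave 11, whole values only 4, dropping the top 10% of cells 12, equal cells per mouse 30, low-quality microglia alone 5 and dropping the microglia richest in Arg1 or Hmox1 6. Leaving out each mouse gave 0 to 3, 0 to 2, 0 to 4 and 3 to 15. The number of genes whose genotype effect differed among P1-P2, P3 and P5 was 3, with 79 without the filter and 0 to 3 by mouse left out. Between microglia and the joined populations it was 56, with 12 to 125 by mouse left out. There the Arg1 difference of 1.74 ran from 0.89 to 1.97 by mouse left out and was 0.38 without the microglia richest in Arg1 or Hmox1, a choice made by the same UMIs that lowers the value by construction. By mouse left out, 4 to 6 members were highest in P1-P2, 1 to 4 in P3 and 1 to 2 in microglia, and 1 was highest in microglia without the top 10% of cells. The causes of these changes were not tested.

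Of 523 refits of the members' fold changes under an alternative, 435 kept sign and side of the threshold, 3 passed the threshold (Vegfa in P1-P2, Arg1 and Hmox1 in microglia, all without the filter) and 85 changed sign, all from values that had not passed. The values that changed sign follow. With DESeq2 it was Hmox1 (0.032) in P1-P2. With RLE size factors it was Hmox1 (0.00026) in P1-P2. Without the low-count filter it was Odc1 (-0.037) in P1-P2. With a sex term it was Arg1 (-0.024) in P3. Without the top 10% of cells by UMIs it was Hmox1 (0.10) in P1-P2, Mrc1 (0.13) and Odc1 (0.066) in P3, Nos2 (-0.021) in P5 and Thbs1 (-0.80) in microglia. With equal cells per mouse it was Hmox1 (0.40), Chil3 (-0.37) and Thbs1 (0.12) in P1-P2, Mrc1 (0.39), Chil3 (-0.088) and Odc1 (0.24) in P3, Hmox1 (0.061) and Mrc1 (0.037) in P5 and Thbs1 (-0.38) in microglia. In low-quality microglia alone it was Hmox1 (0.46) and Thbs1 (-0.90) in microglia. Without the microglia richest in Arg1 or Hmox1 in each mouse it was Vegfa (-0.43) and Thbs1 (-0.94) in microglia. Leaving out each mouse turned the sign of several, and their ranges follow. In P1-P2 these were Arg1 -0.88 to 0.24, Hmox1 -0.49 to 0.23, Mrc1 -0.15 to 1.16, Chil3 -0.0021 to 1.01, Thbs1 -0.61 to 0.044, Odc1 -0.33 to 0.26 and Slc7a2 -0.85 to 0.030. In P3 these were Arg1 -0.26 to 0.54, Nos2 -0.67 to 1.58, Hmox1 -0.055 to 0.40, Mrc1 -0.72 to 0.28, Chil3 -0.32 to 1.00, Thbs1 -0.31 to 0.42, Ass1 -0.027 to 0.46, Odc1 -0.40 to 0.19 and Slc7a2 -0.044 to 0.94. In P5 these were Arg1 -0.65 to 0.33, Nos2 -0.47 to 0.91, Hmox1 -0.34 to 0.20, Mrc1 -0.38 to 0.23, Chil3 -1.80 to 0.075, Vegfa -0.24 to 0.34, Thbs1 -0.39 to 0.38, Ass1 -0.23 to 0.44, Odc1 -0.44 to 0.094 and Slc7a2 -0.21 to 0.83. In microglia these were Thbs1 -1.19 to 0.95. Equal cells, low-quality microglia alone and dropping the richest microglia took Arg1 in microglia below the count filter, which gave no value. The microglia fits rest on 414 cells or fewer.

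The replicate numbers of the titles were not shown to pair the mice: deviations of same-numbered mice in P1-P2, P3 and P5 correlated at -0.26 to 0.15. A fit with the replicate number as a block used replicates 1 to 3 in P1-P2, P3 and P5. In microglia, without KO 3, it rested on replicates 1 and 2 only (2 KO and 2 WT mice). It called 3 genes in each of the 4 populations and no member. Under the block the sign turned for Arg1 (0.11), Hmox1 (0.15) and Odc1 (-0.36) in P1-P2, Thbs1 (-0.28) in P3, Arg1 (0.32), Vegfa (-0.17), Thbs1 (-0.41) and Ass1 (-0.053) in P5 and Thbs1 (-1.30) in microglia.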
